A study of Mus musculus with 12 samples.

Results

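The genes of prostaglandin synthesis and breakdown were examined in mouse hepatic stellate cells. The 8 genes were taken by symbol (Pla2g4a, Ptgs1, Ptgs2, Ptges, Ptges2, Ptges3, Ptgis and Hpgd), and all 8 were among the 12081 genes listed. Stellate cells, liver pericytes that store vitamin A, were isolated by density gradient from livers of Hk2 fl/fl mice, whose hexokinase 2 gene can be removed by Cre recombinase. That genotype was shared by all 4 groups, each of 3 libraries. Quiescent cells (QS) were untreated and freshly isolated, without culture or virus. Activated cells (ACT) received an adenovirus expressing eGFP (Ad-GFP) and spent 6 days in culture. Hk2-deleted cells (KO) received an adenovirus expressing Cre fused to eGFP (Ad-Cre) and were cultured for the same time. The last group (LAC) was Ad-Cre cells, also cultured for 6 days, that were given 10 mM lactate for 24 h. Every KO and LAC library received Cre and no ACT library did, so effects of Cre itself and of Hk2 loss cannot be told apart. QS differed from the others in both culture and virus. The labels name no cell type-specific promoter for Cre. The age of the mice, and whether libraries of a group came from different mice or dishes, were not given in the sources used here, so p-values describe the spread between libraries, which may be technical.

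Prostaglandins are short-lived lipid signals made on demand from arachidonic acid. Cytosolic phospholipase A2 (Pla2g4a) frees the fatty acid from membranes. The cyclooxygenases then turn it into prostaglandin H2: Ptgs1 encodes the constitutive enzyme and Ptgs2 the inducible one. Terminal synthases make the active products from that common precursor, prostaglandin E2 in the case of Ptges and prostacyclin in the case of Ptgis. Hpgd encodes the dehydrogenase that inactivates prostaglandins after uptake. In the liver, prostanoids come from macrophages and endothelium as well as from stellate cells, where prostaglandin E2 and prostacyclin act on contraction and matrix production.

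Start-site sequences are shown for the inducible and the constitutive cyclooxygenase, which took different courses, for Pla2g4a, the neighbour of Ptgs2 in the genome, for Ptges, and for Hpgd, the gene that was lowest in the cultured groups relative to QS. RefSeq windows (build GRCm38.p6) of 250 bases before to 50 bases after the start were found for 7 of the 8 genes. Capitals mark every match, on either strand, to a set of motifs: the TATA box was searched as TATAAA, the E-box as CACGTG, the core of the cAMP response element as TGACG, the GC box as GGGCGG, the AP-1 element as TGANTCA, the C/EBP element as TTGCNNAA, and the NF-kB element by its usual decamer.
Ptgs2 (chr1:150099781-150100080, plus strand): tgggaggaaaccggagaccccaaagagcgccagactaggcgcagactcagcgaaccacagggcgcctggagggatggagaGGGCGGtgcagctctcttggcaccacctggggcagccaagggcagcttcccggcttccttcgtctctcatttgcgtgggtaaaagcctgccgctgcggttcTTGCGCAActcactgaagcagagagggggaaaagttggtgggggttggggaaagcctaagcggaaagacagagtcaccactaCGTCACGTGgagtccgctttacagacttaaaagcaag
Ptgs1 (chr2:36230176-36230475, plus strand): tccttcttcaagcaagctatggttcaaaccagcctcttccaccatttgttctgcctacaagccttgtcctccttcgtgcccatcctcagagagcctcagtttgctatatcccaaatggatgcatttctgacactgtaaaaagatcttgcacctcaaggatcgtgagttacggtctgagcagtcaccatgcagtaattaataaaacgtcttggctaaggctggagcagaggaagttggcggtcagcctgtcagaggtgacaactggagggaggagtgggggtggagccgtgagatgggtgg
Pla2g4a (chr1:149961241-149961540, minus strand): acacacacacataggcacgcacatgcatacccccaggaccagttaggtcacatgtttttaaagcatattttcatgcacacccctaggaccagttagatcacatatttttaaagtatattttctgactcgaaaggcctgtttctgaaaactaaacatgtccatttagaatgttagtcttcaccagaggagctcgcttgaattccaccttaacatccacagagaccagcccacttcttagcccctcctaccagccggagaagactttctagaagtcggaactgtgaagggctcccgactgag
Ptges (chr2:30903248-30903547, minus strand): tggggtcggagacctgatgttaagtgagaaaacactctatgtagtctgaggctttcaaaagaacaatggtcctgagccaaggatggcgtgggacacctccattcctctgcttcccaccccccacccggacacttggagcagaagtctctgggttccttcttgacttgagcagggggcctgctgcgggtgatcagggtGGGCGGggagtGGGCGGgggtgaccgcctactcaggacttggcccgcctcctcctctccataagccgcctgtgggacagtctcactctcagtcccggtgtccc
Hpgd (chr8:56294302-56294601, plus strand): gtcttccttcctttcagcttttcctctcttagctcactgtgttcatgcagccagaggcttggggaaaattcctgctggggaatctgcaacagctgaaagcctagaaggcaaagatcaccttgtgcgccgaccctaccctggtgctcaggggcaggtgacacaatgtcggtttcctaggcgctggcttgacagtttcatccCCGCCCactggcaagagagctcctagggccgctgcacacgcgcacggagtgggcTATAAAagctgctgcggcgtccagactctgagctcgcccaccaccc
The Ptgs2 window held a GC box 170 bases before the start, the C/EBP match TTGCGCAA 69 bases before it, and a CGTCA and a CACGTG that overlap, 13 and 16 bases after it. The Ptgs1 and Pla2g4a windows held none of these motifs. The Ptges window held GGGCGG at 53 and at 42 bases before the RefSeq start, which lies inside the longer GENCODE gene. The Hpgd window held a GC box on the reverse strand and TATAAA. In GENCODE M21 this TATAAA lies 29 bases before the annotated start of Hpgd. Of 32851 windows of this length, 13.6% held the TATA box, 7.15% the E-box, 20.8% the cAMP element core, 35.7% the GC box, 7.81% the AP-1, 10.8% the C/EBP and 1.47% the NF-kB element. A match describes letters and says nothing of a bound factor. Pla2g4a (minus strand, chromosome 1, 149829618 to 149961290) and Ptgs2 (plus strand, 150100031 to 150108227) point away from each other. Their annotated 5′ ends lie 138741 bases apart, with no other coding gene between them.

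Levels are normalized CPM (counts scaled to library size), which carry an extra scaling factor per library. Estimated depth was 4.35 M to 14.0 M reads per library, and the QS libraries included the shallowest. Hk2, the targeted gene, was 66.7 to 73.5 (QS), 181 to 182 (ACT), 10.7 to 13.7 (KO) and 18.7 to 19.7 CPM (LAC). KO and LAC lay below QS and ACT in every library, as labelled (log2 fold change -3.80 for KO against ACT, limma adjusted p = 2.25e-14), and LAC lay above KO (0.64, adjusted p = 1.66e-05). The two-sided exact permutation test gave p = 0.10, the smallest possible with 3 against 3 libraries. Stellate markers were present in each group: of 16, the number that averaged at least 5 CPM was 16 (QS), 10 (ACT), 16 (KO) and 13 (LAC). The summed level of these 16 markers was 6515 to 6680 (QS), 1285 to 1319 (ACT), 1630 to 1747 (KO) and 1819 to 1888 CPM (LAC). Among them Lrat, which forms retinyl esters in quiescent cells, averaged 352 (QS), 3.09 (ACT), 17.4 (KO) and 14.0 CPM (LAC), and Pdgfrb 75.7, 95.7, 134 and 159 CPM. Markers of other cells were present too. The summed level of 20 macrophage markers was 7659 to 7726 (QS), 17502 to 17829.8 (ACT), 565 to 586 (KO) and 4381 to 4457 CPM (LAC). That of 20 endothelial markers was 19262 to 19812 CPM, 900.0 to 926 CPM, 10330.3 to 11573 CPM and 5654 to 5889 CPM. That of 19 listed hepatocyte markers was 2835 to 2881 CPM, 341 to 351 CPM, 425 to 442.5 CPM and 117 to 127 CPM. Trf made up most of the hepatocyte sum in ACT (305 CPM) and LAC (121 CPM), and averaged 449 CPM in QS and 81.4 CPM in KO. Alb, the highest of these markers in QS, averaged 1128 (QS), 10.6 (ACT), 157 (KO) and 0.601 CPM (LAC). In bulk RNA, fewer cells of a type and less RNA per cell cannot be told apart.

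Pla2g4a, which supplies the arachidonic acid, was high in both ACT and LAC and lower in QS and KO. Its level was 43.5, 37.0 and 44.1 CPM (QS) and 113, 121 and 117 CPM (ACT). It was 57.9, 59.5 and 68.6 CPM in KO and 108, 119 and 110.3 CPM in LAC. QS and KO did not overlap with each other or with the other groups, whereas ACT and LAC overlapped. Pla2g4a rose 2.82-fold from QS to ACT (log2 fold change 1.48, SE 0.078, adjusted p = 4.06e-10). It fell from ACT to KO (log2 fold change -0.91, adjusted p = 1.54e-07) and rose from KO to LAC (0.85, adjusted p = 9.41e-07). LAC and ACT were not separated by the test (-0.06, 95% interval -0.23 to 0.11, adjusted p = 0.56). KO remained above QS (0.57, adjusted p = 1.44e-05). The marker sums of portal fibroblasts and of mesothelial cells and cholangiocytes changed in the same directions, but single markers differed. The sum of 4 listed of 10 portal fibroblast markers was 145 to 170.2 (QS), 1133 to 1165 (ACT), 406 to 414 (KO) and 708 to 730.2 CPM (LAC), and 2, 4, 3 and 4 of them averaged at least 5 CPM. Fbln2 made up most of that sum outside QS, at 958, 340.03 and 642 CPM in ACT, KO and LAC, and averaged 2.82 CPM in QS. Gas6, another of the 4, averaged 137 (QS), 113 (ACT), 57.1 (KO) and 48.3 CPM (LAC). The sum of 12 listed mesothelial and cholangiocyte markers was 77.4 to 81.6 (QS), 304 to 325 (ACT), 119 to 127 (KO) and 239 to 241 CPM (LAC), with 6, 9, 4 and 7 at 5 CPM or more on average. Cd24a made up most of that sum in LAC, at 136 CPM against 54.9 CPM in ACT. Wt1 averaged 79.8 CPM in ACT and 5.89 CPM in LAC, groups between which Pla2g4a was not called. None of these markers was at 0 throughout a group, and the part of these cells in the Pla2g4a result was not tested.

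Ptgs2, the inducible cyclooxygenase, rose with culture, was not called between ACT and KO, and was highest with lactate. Its level was 3.62, 5.76 and 5.43 CPM in QS, which rests on 24 to 35 estimated reads. It was 278, 262 and 264 CPM in ACT, 306, 261 and 306 CPM in KO and 609, 584 and 634 CPM in LAC. Each LAC library was above every library of the other groups, and the KO range contained the ACT range. Ptgs2 rose 54.3-fold from QS to ACT (log2 fold change 5.52, SE 0.112, adjusted p = 1.00e-14). From ACT to KO it was not called (0.12, 95% interval -0.12 to 0.36, adjusted p = 0.386). Ptgs2 rose 2.09-fold from KO to LAC (log2 fold change 1.07, 95% interval 0.83 to 1.31, adjusted p = 3.85e-06). LAC also exceeded ACT, by 2.27-fold (1.18, adjusted p = 7.56e-07). The order was thus LAC, then KO and ACT without a called difference, then QS. The macrophage and endothelial marker sums given above also differed between these groups. The part of those cells in the Ptgs2 result was not tested.

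Ptgs1, the constitutive cyclooxygenase (chromosome 2, 36230426 to 36252272, plus strand), was highest in ACT. It was 113, 66.4 and 119 CPM (QS) and 191, 176 and 159.6 CPM (ACT). It was 106, 85.6 and 83.0 CPM in KO and 105, 115 and 117 CPM in LAC. Every ACT library was above all others, while QS, KO and LAC overlapped. Ptgs1 rose 1.77-fold from QS to ACT (log2 fold change 0.86, SE 0.169, adjusted p = 4.05e-04) and fell from ACT to KO (-0.93, adjusted p = 2.68e-04). LAC was lower than ACT (-0.64, adjusted p = 0.00633). LAC against KO was not called (0.30, 95% interval -0.07 to 0.66, adjusted p = 0.181), nor was KO against QS (-0.08, adjusted p = 0.694) or LAC against QS (0.22, adjusted p = 0.254). QS replicate 2 was the lowest library, and the SE of LAC against QS was 0.169 with it and 0.0998 without it. Without it, LAC was called higher than KO (0.30, adjusted p = 0.0169) and KO lower than QS (-0.34, adjusted p = 0.00809), and LAC against QS was -0.04 (adjusted p = 0.713). LAC against KO was also called when only these groups were fitted (adjusted p = 0.0257). The sum of macrophage markers was highest in ACT as well, and 18 of 20 averaged at least 5 CPM there, 20 in QS, 9 in KO and 16 in LAC. In LAC Timd4 was at 0 in every library, and no other macrophage marker was at 0 throughout a group. The part of these cells in the Ptgs1 result was not tested. An antisense transcript overlaps 148 exonic bases of Ptgs1.

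Per length of transcript, the cyclooxygenase messages shifted from mostly Ptgs1 to mostly Ptgs2. CPM was divided by the longest coding transcript, 2867 bases for Ptgs1 and 4453 bases for Ptgs2. On this scale (CPM per kb) Ptgs1 was 34.6 ± 9.98 (QS), 61.2 ± 5.51 (ACT), 32.0 ± 4.49 (KO) and 39.2 ± 2.33 (LAC) (SD, n = 3). Ptgs2 was 1.11 ± 0.259, 60.1 ± 1.91, 65.4 ± 5.84 and 137 ± 5.62 CPM per kb in the same order. The share of Ptgs2 in the sum of both was 2.02, 5.29 and 2.86% in the QS libraries and 48.3, 49.0 and 51.5% in ACT. It was 64.9, 66.3 and 70.4% in KO and 78.9, 76.5 and 77.7% in LAC. The libraries of the 4 groups did not overlap in this share. Between ACT and KO the gene that was called was Ptgs1 (lower), and between KO and LAC it was Ptgs2 (higher). Their sum was 35.7 ± 9.85 (QS), 121 ± 7.15 (ACT), 97.3 ± 8.66 (KO) and 176 ± 6.36 CPM per kb (LAC). The part of other cell types in the shift between Ptgs1 and Ptgs2 was not tested.

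**Figure D1:**
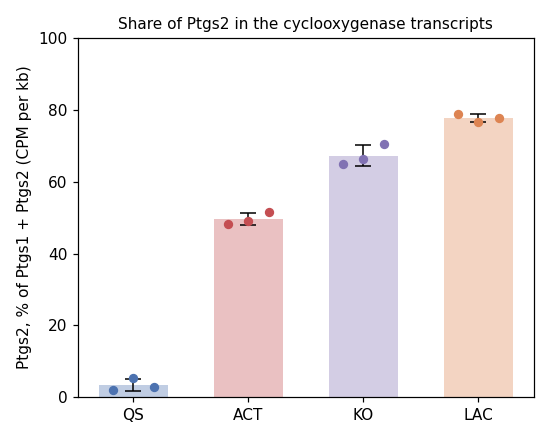
Share of Ptgs2 in the summed cyclooxygenase transcripts (Ptgs1 + Ptgs2, CPM per kb), in percent on a linear axis from 0, for each library (points), with bars for the group mean and error bars for the SD (n = 3). The share was lowest in QS (2.02 to 5.29%) and highest in LAC (76.5 to 78.9%), with no overlap between groups.

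The 3 prostaglandin E synthase genes differed from one another. Ptges encodes the inducible microsomal enzyme that is known to work with the inducible cyclooxygenase (chromosome 2, 30889471 to 30929863, minus strand). It was 8.68, 9.97 and 8.41 CPM (QS) and 18.5, 20.1 and 17.7 CPM (ACT). It was 35.7, 37.4 and 34.3 CPM in KO and 33.7, 35.7 and 30.7 CPM in LAC. The groups did not overlap except KO and LAC. Ptges rose 2.08-fold from QS to ACT (log2 fold change 0.98, SE 0.094, adjusted p = 3.28e-07) and a further 1.90-fold from ACT to KO (0.90, adjusted p = 1.41e-06). LAC against KO was not called (-0.10, 95% interval -0.30 to 0.10, adjusted p = 0.435). Ptges thus was higher in KO than in ACT, where Pla2g4a, Ptgs1 and Ptgis were lower.

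Ptges2, a membrane-associated enzyme (chromosome 2, 32395896 to 32405772, plus strand), was the least abundant of the 8 genes per length, at 0.930 to 1.03 CPM per kb on average in the 4 groups. Its level ranged from 3.42 to 6.47 CPM over the 12 libraries, from 16 to 85 estimated reads. None of the 6 comparisons called it. The 95% interval of the log2 fold change was -0.51 to 0.47 for KO against ACT and -0.56 to 0.42 for LAC against KO. Ptges3 encodes the cytosolic synthase, better known as p23, a co-chaperone of Hsp90 (chromosome 10, 128058954 to 128077272, plus strand). It was 246, 264 and 240.1 (QS), 209, 193 and 189 (ACT), 185, 179 and 203 (KO) and 158, 168 and 172 CPM (LAC). QS was above all other libraries and LAC below all of them, with ACT and KO overlapping. Ptges3 fell from QS to ACT (log2 fold change -0.34, adjusted p = 7.84e-05) and was not called from ACT to KO (-0.06, 95% interval -0.18 to 0.06, adjusted p = 0.39). LAC was lower than KO (-0.19, adjusted p = 0.017), a call that was lost without KO replicate 3 (-0.13, adjusted p = 0.0722) or without LAC replicate 1 (-0.15, adjusted p = 0.0744). LAC was also lower than ACT (-0.24, adjusted p = 0.00237). The annotation holds a processed pseudogene of Ptges3, so the assignment of reads to this gene is uncertain.

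Ptgis, the prostacyclin synthase (chromosome 2, 167191805 to 167240604, minus strand), rose with culture, fell with Ad-Cre and rose in part with lactate. It was 9.09, 9.60 and 10.0 (QS), 123, 138 and 134 (ACT), 33.8, 32.0 and 30.6 (KO) and 47.5, 40.2 and 45.9 CPM (LAC). All 4 groups were apart. Ptgis rose 13.8-fold from QS to ACT (log2 fold change 3.65, SE 0.078, adjusted p = 1.83e-14). KO held 24.4% of the ACT level (-2.00, adjusted p = 2.54e-11) and LAC 33.8% (-1.55, adjusted p = 9.40e-10). The rise from KO to LAC was 1.39-fold (0.46, adjusted p = 3.50e-04). Per length, Ptgis was 62.5 ± 3.51 CPM per kb in ACT against 5.15 ± 0.341 CPM per kb for Ptges. In KO the levels were 15.3 ± 0.745 and 9.81 ± 0.428 CPM per kb. From ACT to KO Ptgis and Ptges thus moved in opposite directions. The portal fibroblast and the mesothelial and cholangiocyte marker sums given with Pla2g4a had the group order of Ptgis (ACT, LAC, KO, QS), and the part of those cells was not tested. An antisense transcript overlaps 156 exonic bases of Ptgis, and use of strand in the counting was not given in the sources used here.

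**Figure D2:**
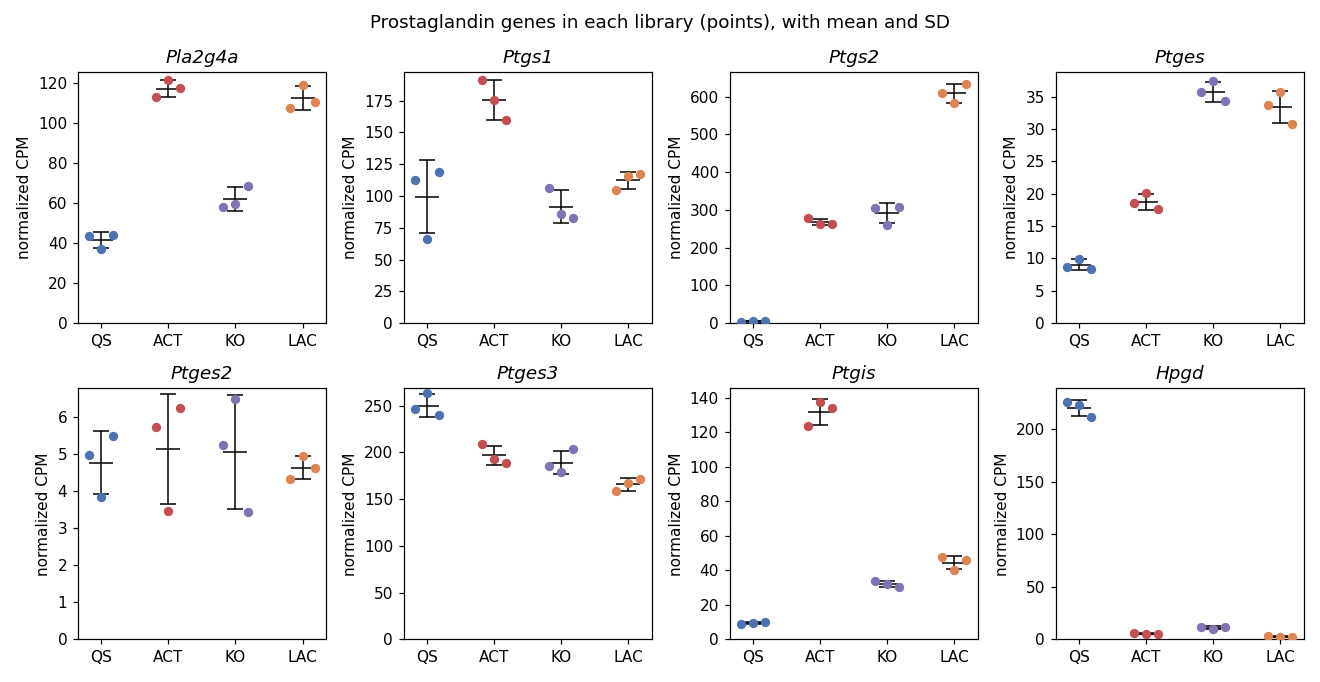
Normalized CPM of the 8 prostaglandin genes (linear axes from 0, each with its own range) in every library (points) of QS, ACT, KO and LAC, with the group mean and SD (n = 3). Ptgs2 is highest in LAC (584 to 634 CPM), Ptgis in ACT (123 to 138 CPM) and Hpgd in QS (211 to 226 CPM).

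Hpgd, which inactivates prostaglandins (chromosome 8, 56294585 to 56321043, plus strand), went opposite to Ptgs2 with culture and with lactate. It was 226, 223 and 211 CPM (QS) and 6.44, 5.55 and 4.81 CPM (ACT). It was 12.2, 9.89 and 11.7 CPM in KO and 3.11, 2.43 and 2.25 CPM in LAC, the last on 20 to 35 estimated reads. No groups overlapped, in the order QS, KO, ACT, LAC. ACT held 2.55% of the QS level (log2 fold change -5.07, SE 0.127, adjusted p = 1.02e-13). Hpgd rose 2.01-fold from ACT to KO (0.89, adjusted p = 2.82e-05). LAC held 23.1% of the KO level (-1.77, adjusted p = 7.57e-08) and 46.4% of the ACT level (-0.88, adjusted p = 5.09e-05). The summed hepatocyte markers had the same order of groups. Of 19 listed, the number that averaged at least 5 CPM was 19 (QS), 4 (ACT), 15 (KO) and 1 (LAC). Fga, Cyp2e1, Cps1, Hnf4a, Apoc3 and Ahsg were at 0 in every LAC library. Endothelial markers were also highest in QS and higher in KO than in ACT, but their sum was higher in LAC than in ACT, unlike Hpgd. The stellate marker sum was highest in QS too. Among macrophage markers, whose sum was highest in ACT, Clec4f averaged 360 (QS), 3.72 (ACT), 3.62 (KO) and 0.784 CPM (LAC). The part of any of these cells in the Hpgd result was not tested.

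Counted together, 5 of the 8 genes rose and 2 fell from QS to ACT, where 73.5% of all genes tested were called, 38.0% higher and 35.5% lower. The median log2 fold change was 0.92 over the 8 genes and 0.03 over all genes. From ACT to KO, 2 rose and 3 fell (62.4% of all genes called, 36.0% higher and 26.3% lower, medians -0.04 and 0.07). From KO to LAC, 3 rose and 2 fell (41.0% of all genes called, 21.0% lower and the rest higher, medians 0.11 and -0.02). In LAC against ACT, 2 were higher and 4 lower (49.5% of all genes called, 27.8% higher and 21.7% lower). Against QS, 4 genes were higher and 2 lower in KO (73.0% of all genes called, 37.4% higher and 35.7% lower). The counts in LAC against QS were also 4 and 2 (73.6% called, 37.4% higher and 36.2% lower). Of the 8 genes 87.5% were called in ACT against QS, 62.5% in KO against ACT and in LAC against KO, and 75.0% in each of the other comparisons. The share was nearest to that of all genes in KO against ACT, and furthest above it in LAC against ACT. The genes did not move as a block: Ptges rose and Ptgis fell from ACT to KO, and Ptgs2 was not called. The comparisons share libraries, so their values stand side by side without a test of likeness.

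**Figure D3:**
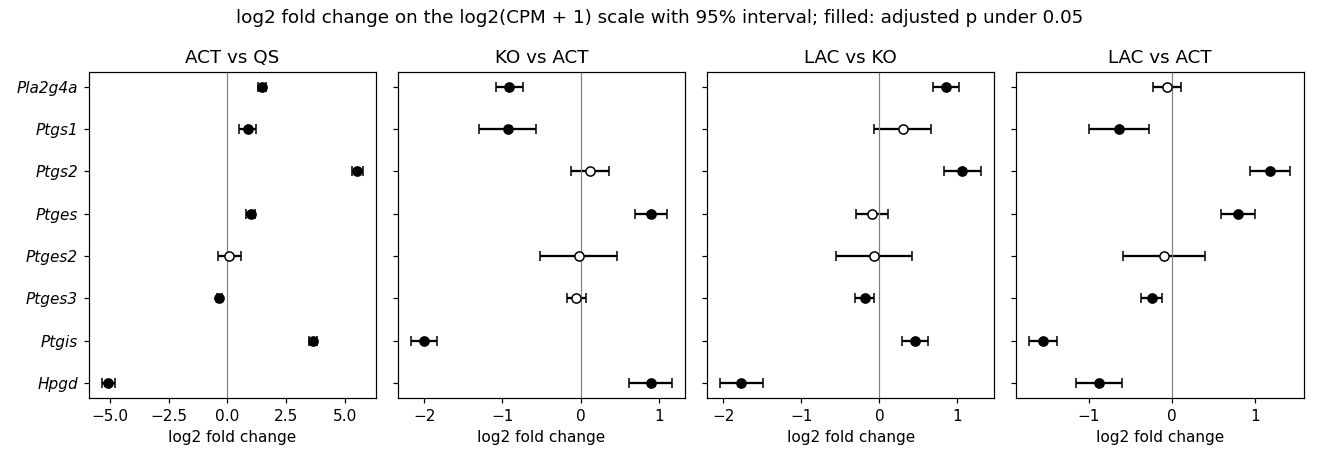
log2 fold changes of the 8 genes on the log2(CPM + 1) scale with 95% intervals, in 4 comparisons with different horizontal ranges. Filled points passed an adjusted p of 0.05, open points did not. Ptgs2 is open only in KO vs ACT among these comparisons (0.12), and Ptges2 is open in each.

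Other genes of the route were read from the same tests. Of 13 further genes of prostanoid synthesis 10 were listed, and of these 4 rose and 3 fell from QS to ACT, 6 rose and 3 fell from ACT to KO, and 3 rose and 3 fell from KO to LAC. The median log2 fold changes were 0.24, 0.40 and -0.07. The shares of the whole table that were called were 38.0% higher and 35.5% lower from QS to ACT, 36.0% and 26.3% from ACT to KO, and 41.0% in either direction from KO to LAC. Tbxas1, the thromboxane synthase, was 21.8 ± 1.64 (QS), 134 ± 6.19 (ACT), 1.76 ± 1.23 (KO) and 25.8 ± 2.39 CPM (LAC) (SD, n = 3). Hpgds, the haematopoietic prostaglandin D synthase, was 19.2 ± 1.83, 47.1 ± 1.03, 1.33 ± 0.439 and 15.2 ± 1.00 CPM. Both fell from ACT to KO (Tbxas1 -5.70, adjusted p = 1.39e-11, and Hpgds -4.39, adjusted p = 2.85e-12) and rose from KO to LAC (3.36 and 2.81). Both are known to be expressed by macrophages, whose summed markers had the order ACT, QS, LAC, KO. Single macrophage markers differed in order: Lyz2 averaged 513, 9350.2, 70.4 and 2240.0 CPM (order QS, ACT, KO, LAC), with the same ranks as Tbxas1, and Mrc1 1538, 170.2, 387 and 187.5 CPM. The part of these cells in the changes of Tbxas1 and Hpgds was not tested. Akr1b8, an aldo-keto reductase, went the other way, with -2.29 from QS to ACT, 1.78 from ACT to KO and -0.80 from KO to LAC (adjusted p at most 5.30e-10). The endothelial marker sum had the group order of Akr1b8 (QS, KO, LAC, ACT), and the part of endothelial cells was not tested.

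Of 10 transport and breakdown genes 9 were listed. From QS to ACT 2 rose and 6 fell (35.5% of all genes called lower, median -1.13), from ACT to KO 7 rose and 2 fell (36.0% higher, median 1.02), and from KO to LAC 2 rose and 6 fell (21.0% lower, median -0.28). Abcc4, an exporter of prostaglandins, was 147.5 ± 2.10 (QS), 43.5 ± 6.67 (ACT), 157 ± 8.26 (KO) and 102 ± 5.55 CPM (LAC). It rose from ACT to KO (1.84, adjusted p = 2.52e-10) and fell from KO to LAC (-0.62, adjusted p = 7.06e-05). Slco2a1, the prostaglandin uptake carrier, named after its values were seen, was 249.8 ± 5.38, 114 ± 4.97, 233 ± 9.10 and 218 ± 6.96 CPM in the same order. It is also expressed by endothelium, whose marker sum was lowest in ACT, as were Slco2a1 and Abcc4. The part of endothelial cells in the values of Slco2a1 and Abcc4 was not tested. Ptgr1, a reductase that acts after Hpgd, rose between QS (5.41 ± 1.16 CPM) and ACT (52.0 ± 1.59 CPM) (3.06, adjusted p = 2.19e-11). It was 31.6 ± 3.96 CPM in KO and 48.9 ± 4.13 CPM in LAC. Akr1c6 and Akr1c14 are hepatic aldo-keto reductases known mainly for acting on steroids. Akr1c6 was 51.8 ± 5.84 CPM in QS and 7.78 ± 1.19 CPM in KO, at most 0.0707 CPM in an ACT library, and at 0 in all LAC libraries. Hepatocyte markers ran alike: Cyp2e1 averaged 97.6 CPM in QS, 0.0758 CPM in ACT and 17.5 CPM in KO, and was at 0 in LAC. The part of hepatocytes in the values of Akr1c6 and Akr1c14, which count in this list, was not tested.

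Of 12 genes of prostanoid receptors and a receptor inhibitor 7 were listed. From QS to ACT 4 rose and 1 fell (73.5% of all genes called, 38.0% higher, median 0.70), from ACT to KO 1 rose and 5 fell (62.4% called, 26.3% lower, median -0.69), and from KO to LAC 3 rose and 1 fell (41.0% called, median 0.29). Ptgir, the receptor of prostacyclin, was 0.48 to 1.46 (QS), 15.7 to 17.5 (ACT), 2.10 to 3.13 (KO) and 5.59 to 7.55 CPM (LAC). It rose from QS to ACT (3.30, adjusted p = 4.59e-09), fell to KO (-2.34, adjusted p = 3.36e-07) and rose to LAC (1.18, adjusted p = 5.81e-04), the same directions as Ptgis. Ptger4, a receptor of prostaglandin E2, was 6.06 to 8.40 (QS), 17.1 to 19.9 (ACT), 1.28 to 2.35 (KO) and 4.75 to 5.29 CPM (LAC). Its change was 1.25 from QS to ACT, -2.72 from ACT to KO and 1.06 from KO to LAC (adjusted p at most 2.45e-04). The macrophage marker sum had the group order of Ptger4 (ACT, QS, LAC, KO), and the part of macrophages was not tested. Ptgfrn, whose product is an inhibitor of the prostaglandin F receptor and no receptor itself, is counted among those that rose, fell and rose, and was 11.3 ± 2.20, 122 ± 3.64, 40.3 ± 0.582 and 77.6 ± 3.13 CPM in QS, ACT, KO and LAC. Ppard, a nuclear receptor, rose from ACT to KO (1.06, adjusted p = 1.75e-07) and fell from KO to LAC (-0.43, adjusted p = 0.00181). Tbxa2r, the thromboxane receptor, fell from QS to ACT (-2.47, adjusted p = 1.32e-04).

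**Figure D4:**
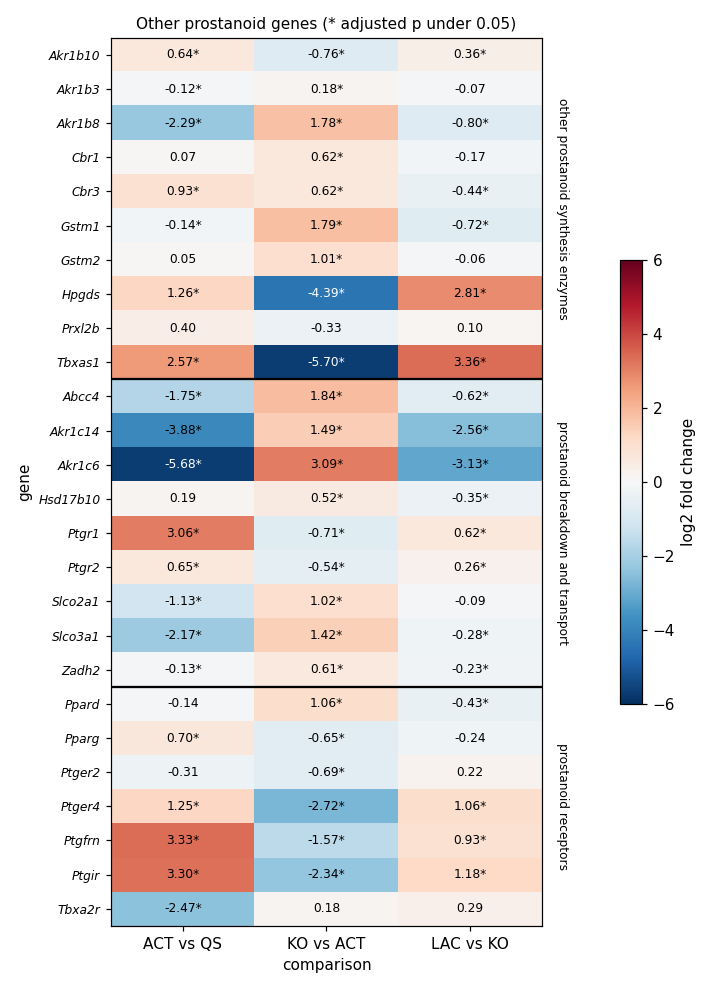
log2 fold changes of 26 other prostanoid genes (rows, in 3 lists) in 3 comparisons (columns), with an asterisk for an adjusted p under 0.05. Tbxas1 and Hpgds fell most from ACT to KO (-5.70 and -4.39), and Ptgir and Ptgfrn rose from QS to ACT (3.30 and 3.33).

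Of 28 other genes that release or store arachidonic acid 18 were listed. From QS to ACT 12 rose and 4 fell (38.0% of all genes called higher and 35.5% lower, median 0.59). From ACT to KO 7 rose and 9 fell (36.0% higher and 26.3% lower, median -0.23), and from KO to LAC 7 rose and 5 fell (41.0% called, 21.0% lower, median 0.11). Anxa1, the gene of annexin A1, which is known to restrain phospholipase A2, was 40.7 ± 5.56 (QS), 1403 ± 11.2 (ACT), 625.0 ± 19.9 (KO) and 1072 ± 11.6 CPM (LAC). Mgll, the monoacylglycerol lipase that frees arachidonic acid from an endocannabinoid, was 237 ± 5.56, 28.8 ± 1.27, 88.7 ± 2.08 and 42.8 ± 1.25 CPM in the same order. Mgll thus went opposite to Pla2g4a in each of these 3 comparisons, with -3.00 from QS to ACT, 1.59 from ACT to KO and -1.04 from KO to LAC. Daglb, which makes the substrate of Mgll, rose (2.03), fell (-2.40) and rose again (1.03). The endothelial marker sum had the group order of Mgll (QS, KO, LAC, ACT). The macrophage marker Lyz2 had that of Daglb (ACT, LAC, QS, KO), whereas the macrophage sum was higher in QS than in LAC. The part of these cells in Mgll and Daglb was not tested. Pla2g7, a secreted phospholipase of macrophages that acts on platelet-activating factor, was 473 ± 9.03 (ACT), 13.9 ± 2.73 (KO) and 141 ± 2.12 CPM (LAC), and the part of macrophages in this was not tested.

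Of factors known to act on the transcription or the message of Ptgs2, most fell from QS to ACT, where 35.5% of all genes were called lower. The list holds inducers as well as inhibitors, so its counts give no direction for Ptgs2. Of 28 such genes 27 were listed, and 4 rose and 19 fell from QS to ACT (median -0.86, against 0.03 over all genes), 12 rose and 8 fell from ACT to KO (62.4% of all genes called, median 0.07, also 0.07 over all genes) and 5 rose and 11 fell from KO to LAC (41.0% of all genes called, median -0.02, also -0.02 over all genes). Zfp36, whose protein destabilizes AU-rich messages such as that of Ptgs2, was 228 ± 13.6 CPM before and 49.8 ± 2.28 CPM after culture (QS and ACT, log2 fold change -2.17, adjusted p = 1.34e-12). Il1b, an inducer of Ptgs2, went from 38.8 ± 2.82 CPM to 0.436 ± 0.0785 CPM (-4.79, adjusted p = 1.40e-11). Nfkbia, an inhibitor of NF-kB, was 226 ± 10.8 (QS), 43.6 ± 0.400 (ACT), 59.3 ± 2.51 (KO) and 31.7 ± 2.62 CPM (LAC). Fosl1, an AP-1 subunit, was 67.0 ± 7.80, 23.1 ± 0.996, 87.3 ± 10.6 and 53.4 ± 6.26 CPM. Hif1a, the hypoxia factor, was 583 ± 15.8 CPM in QS and 315 ± 8.44 CPM in ACT. It fell from ACT to KO (-0.50, limma adjusted p = 3.12e-07), where Ptgs2 was not called. From 222 ± 14.1 CPM in KO it rose to 306 ± 10.6 CPM in LAC (0.46, adjusted p = 2.16e-06). Celf2 had the largest change of the list from KO to LAC (1.05, adjusted p = 9.42e-10). It was 66.8 ± 1.38 (QS), 193 ± 7.71 (ACT), 55.9 ± 2.38 (KO) and 117 ± 5.33 CPM (LAC). The part of other cell types in these values, and of these genes in the course of Ptgs2, was not tested.

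The genes whose log2 levels followed each member most closely over the 12 libraries were looked up by Pearson correlation, which mainly reflects the 4 group levels and shares each library's depth. For Ptgs2 they were Dcbld2, Gdf11, Thsd7a, Pcyox1 and Lamb1 (r = 0.999 to 0.997). Thsd7a, for example, averaged 3.19, 102, 101 and 221 CPM in QS, ACT, KO and LAC. Pla2g4a was followed by Cd200, Lbh, Senp5, Dipk1a and Grem1 (r = 0.993 to 0.986), and Cd200 averaged 10.4, 93.8, 25.0 and 89.7 CPM. Ptgis was followed by Hexa, Arpc2, Myrf, Kif26b and Plekhg3 (r = 0.996 to 0.991), and Ptges by Peg10, Krt19, Cgref1, Epha2 and Ncbp1 (r = 0.995 to 0.993). For Hpgd they were Nrp2, Nfkbia, Paqr9, Maf and Mef2c (r = 0.997 to 0.994), and for Ptges3 Cmtm6, Ctns, Gsr, Hnrnpr and Cntrl (r = 0.978 to 0.970). Ptgs1 was followed less closely, by Arl8a, Ppp2r5b, Fry, Akr1b10 and Clec5a (r = 0.937 to 0.917), and Ptges2 by Fars2, Pcbp3, Gtf2i, Cdk9 and Fpgs (r = 0.719 to 0.707). Among the members themselves, Ptgs2 and Hpgd had r = -0.983 and Ptgs1 and Ptges r = -0.08. Krt19, a cholangiocyte and mesothelial marker, averaged 1.26 (QS), 7.07 (ACT), 23.2 (KO) and 24.3 CPM (LAC). The sum of the 12 listed markers of those cells, given with Pla2g4a, was highest in ACT, unlike Krt19 and Ptges. Within that list, Krt18 averaged 18.3 (QS), 5.10 (ACT), 25.4 (KO) and 32.7 CPM (LAC), and Krt8 22.7, 4.33, 9.17 and 16.1 CPM. Both were higher in KO than in ACT, like Ptges, but were lowest in ACT. Sox9 averaged 4.92, 6.54, 4.81 and 5.54 CPM. The part of those cells in the course of Ptges was not tested.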

How the data were processed

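The 12 RNA libraries were made with a TruSeq stranded kit, per the labels' protocols. The authors deposited a table of normalized CPM, recorded here as a signal because column totals run from 959233 to 1047042. The submitters' processing notes list edgeR 3.8, kallisto 0.44.0, cutadapt 1.18, FastQC 0.11.8 and the build mm10, and give no role. Of the deposited positive values, 19.7% to 25.8% per library lay within 0.01 of a whole read, so reads were not recovered and no count test was run; depth was estimated from low values shared by several genes. A level of 3 reads corresponds to 0.212 to 0.720 CPM.

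Limma 3.58.1 (R 4.3.3) was fitted to log2(CPM + 1) of all genes with 4 group means over 12 libraries, with trended empirical Bayes moderation, and checked on simulated data. The filter of 1 CPM in 3 libraries removed none. Benjamini-Hochberg adjustment was made over all 12081 genes within each of 6 comparisons, and genes were called at an adjusted p under 0.05. Fold changes on this scale understate changes of low genes, and ratios of means are given beside them. Gene positions and transcript lengths came from GENCODE M21 (mm10), and start-site windows from RefSeq. The members and lists were chosen with earlier results of these data known. Named besides the 8 members and Hk2 were up to 4 called genes per list and comparison of at least 5 CPM with the largest changes, and the 5 genes most correlated with each member. Alternatives were pseudocounts, filters, scalings, a replicate block, fewer groups, other moderation, library weights and leaving out each library.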

Additional observations from a re-analysis of the deposited data

How the results depend on the processing

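The number of the 8 genes called kept its value under each of 12 alternative settings and 12 omissions of a library at 7 (ACT vs QS), 6 (LAC vs QS), 6 (LAC vs ACT) and 5 (KO vs ACT). It ran from 4 to 6 in LAC vs KO and from 6 to 7 in KO vs QS. Of 1152 recomputed fold changes of the 8 genes, 1122 kept their direction and their side of the threshold. The others concern Ptges2, Ptgs1 and Ptges3, and the cause was not tested. Ptges2, called nowhere, changed sign with equal totals (0.0015 in KO vs ACT, 0.0546 in LAC vs QS), quantile normalization (-0.0455 in ACT vs QS, 0.0728 in KO vs ACT), equal medians (0.042 in LAC vs QS) and library weights (0.0189 in KO vs ACT). With a library left out, Ptges2 ran from -0.064 to 0.28 (ACT vs QS), -0.31 to 0.0387 (LAC vs ACT), -0.24 to 0.19 (KO vs ACT), -0.12 to 0.25 (KO vs QS), -0.28 to 0.10 (LAC vs KO) and -0.15 to 0.0655 (LAC vs QS). Ptgs1, not called in KO vs QS, changed sign there with equal totals (0.0348), quantile normalization (0.0185) and equal medians (0.0033), and ran from -0.34 to 0.0733 with a library left out, and in LAC vs QS from -0.0431 to 0.37. Equal totals moved the median of all genes by 0.10 in KO vs QS. With the replicate block the members called were 5 in LAC vs KO, 5 in KO vs ACT, 7 in ACT vs QS and 6 in each of the other comparisons, as without it. The replicate numbers were not taken to pair libraries: over 18 pairs of groups and numbers, same-numbered deviations correlated from -0.12 to 0.23, and 4 exceeded 0.1. The median was 0.02 for same-numbered and -0.01 for other-numbered deviations. In 10 of the 18 pairs the highest correlation was with the same number. Low depth limits Ptges2 throughout, Ptgs2 in QS and Hpgd in LAC.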

Other observations

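The lipoxygenase branch, which turns arachidonic acid into leukotrienes instead of prostaglandins, was listed with 13 of 18 genes. Of these, 7 rose and 4 fell from QS to ACT (median log2 fold change 0.53), 6 rose and 5 fell from ACT to KO (median 0.17) and 5 rose and 4 fell from KO to LAC (median 0.19), by limma at an adjusted p under 0.05. Over all genes 73.5%, 62.4% and 41.0% were called in these comparisons. Alox5ap, the partner protein of 5-lipoxygenase, was 11.5 ± 2.00 (QS), 65.9 ± 2.78 (ACT), 0.289 ± 0.270 (KO) and 22.4 ± 2.99 CPM (LAC) (SD, n = 3). Dpep2, a dipeptidase that acts on leukotrienes, was 0.403 ± 0.270, 43.0 ± 2.00, 0.363 ± 0.172 and 10.4 ± 2.03 CPM in the same order. Alox15 was 12.9 ± 0.347 CPM in ACT and at most 0.285 CPM in any library of the other groups. Every QS library listed Alox5 at 0, and it was 10.3 ± 0.102, 6.24 ± 1.10 and 11.0 ± 1.55 CPM in ACT, KO and LAC. Alox12 went the other way, at 24.0 ± 2.80 (QS), 1.30 ± 0.483 (ACT), 10.9 ± 1.73 (KO) and 6.82 ± 1.76 CPM (LAC). Alox5ap, Dpep2 and Alox15 are known from macrophages, whose summed markers were 17502 to 17829.8 CPM in ACT and 565 to 586 CPM in KO, and their part in these values was not tested.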
